A study of Mus musculus with 16 samples.

Results

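M+133+ cells are liver cells sorted as positive for the surface antigen MIC1-1C3 (M) and for CD133, a membrane protein of duct epithelium encoded by Prom1. The 8 samples described here are 4 of M+133+ cells from mice fed DDC and 4 of M+133+ cells from untreated mice, out of 14 samples in the series. They were chosen by their labelled sort and treatment alone. All mice were c129/S3 animals on a Purina diet, and the treated groups received 0.1% DDC in that diet for 2 weeks. M-133- cells, negative for both antigens, came from untreated (n = 2) and DDC-fed (n = 4) livers and serve only as a second sort in which the response to DDC was measured. The labels name biological replicates but give neither the age of the mice nor the number of animals behind a sample, so p-values measure the spread between these samples. RNA was amplified to cDNA, labelled with Cy3 and hybridised to 1-colour Agilent mouse arrays, with 2 repeat arrays for untreated sample 1, which makes 9 arrays for the 8 samples.

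DDC is a dihydrocollidine derivative that blocks ferrochelatase, the enzyme that places iron into heme. Protoporphyrin then accumulates in liver and bile, ducts are plugged and injured, and cells of the bile duct epithelium divide and spread into the lobule, a response known as a ductular reaction. Resting bile duct cells divide rarely. The comparison asks what changes in the duct cells that can be sorted by the same pair of antigens before and after this injury.

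Each level below is the log2 of a probe's signal minus the 75th percentile of its array, so 0 is a bright probe. The dimmest signal called above background lay between -7.27 and -5.89 in the 8 samples. The 75th percentile signal of the 9 arrays ran from 1659 to 2681 intensity units, apart from DDC sample 1, at 904.8. Across genes, DDC samples correlated with each other at 0.83 to 0.89 and untreated samples at 0.85 to 0.92. Untreated samples correlated with DDC samples at 0.75 to 0.91, a range that overlaps both. The repeat arrays of untreated sample 1 correlated at 0.91. Arrays carry no read depth; their number limits the precision. The median standard error of a DDC difference was 0.81.

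The label of duct cells was checked against markers of bile duct epithelium. Prom1 stood at 1.75, 1.85, 1.15 and 1.69 in untreated samples 1 to 4 and at 0.85, 1.92, 2.27 and 1.16 in DDC samples 1 to 4. Epcam, an epithelial adhesion molecule, stood at 5.01, 4.93, 4.70 and 4.84 and at 6.83, 4.96, 5.02 and 5.87. Both genes were therefore bright in all 8 samples, and their groups overlap. Krt19, Krt7, Sox9, Spp1 and Cftr were also well above background on all 9 arrays, between 0.81 and 7.37 except for Cftr in DDC samples 1 and 4, at 0.03 and -0.02. None of these 7 genes was called, that is, none had a Benjamini-Hochberg adjusted p under 0.05 in limma's moderated test over all genes. Krt7, a keratin of duct cells, came closest. It stood at 1.76, 2.32, 1.16 and 0.81 untreated and at 4.98, 2.61, 3.42 and 3.97 after DDC, with no overlap between the groups (log2 difference 2.23, SE 0.59, limma adjusted p = 0.146). Fech, which encodes ferrochelatase, differed by -0.20 (SE 0.44), with untreated values of 1.65, 1.57, 1.68 and 1.68 and DDC values of 1.91, 2.35, 0.96 and 0.57.

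Genes of other cell types were measured in the same sorts. Endothelial genes stood lower after DDC: 2 of 24 genes of the endothelium list had a positive difference, and the list's mean level per sample was -1.80, -0.06, -1.35 and -2.01 untreated against -4.30, -2.63, -2.02 and -5.04 after DDC. The list median was -2.21, and limma called none of the 24. An unadjusted p under 0.05 was found in 13 members, beside 12.5% of all genes tested. The list stood lower after DDC in M-133- cells too, with a median of -2.52 and 1 of 24 positive. The all-gene median there was -0.33. Kdr, the VEGF receptor of endothelium, stood at 0.31, 0.57, 0.10 and -1.69 against -6.28, -3.95, -2.13 and -7.04, and Cdh5, the endothelial cadherin, at -2.11, 0.22, 0.16 and -3.00 against -7.27, -1.75, -3.34 and -5.01. DDC sample 2 stood apart for hepatocyte genes (list mean 1.20, against -2.25 to -0.35 in the other 7 samples) and for macrophage genes (-2.28 against -5.29 to -4.11). In that sample Lyz2, a lysozyme of macrophages, was at 0.24, against -7.78 to -5.84 in the others. DDC sample 1 had the highest mean of the stellate cell and fibroblast list, -1.34, with Dcn, which encodes decorin, at 1.71 there, at -6.89 to -5.07 in the other DDC samples and at -3.53 to 1.17 untreated. The defining T cell gene Cd3e (-7.71 to -4.59) and the B cell gene Cd79a (-6.06 to -3.28) were dim throughout. Albumin RNA was bright in every sample (5.57 to 6.80), with a DDC difference of 0.35 (SE 0.32). In bulk samples such as these, fewer cells of a type and less RNA per cell cannot be told apart.

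**Figure D1:**
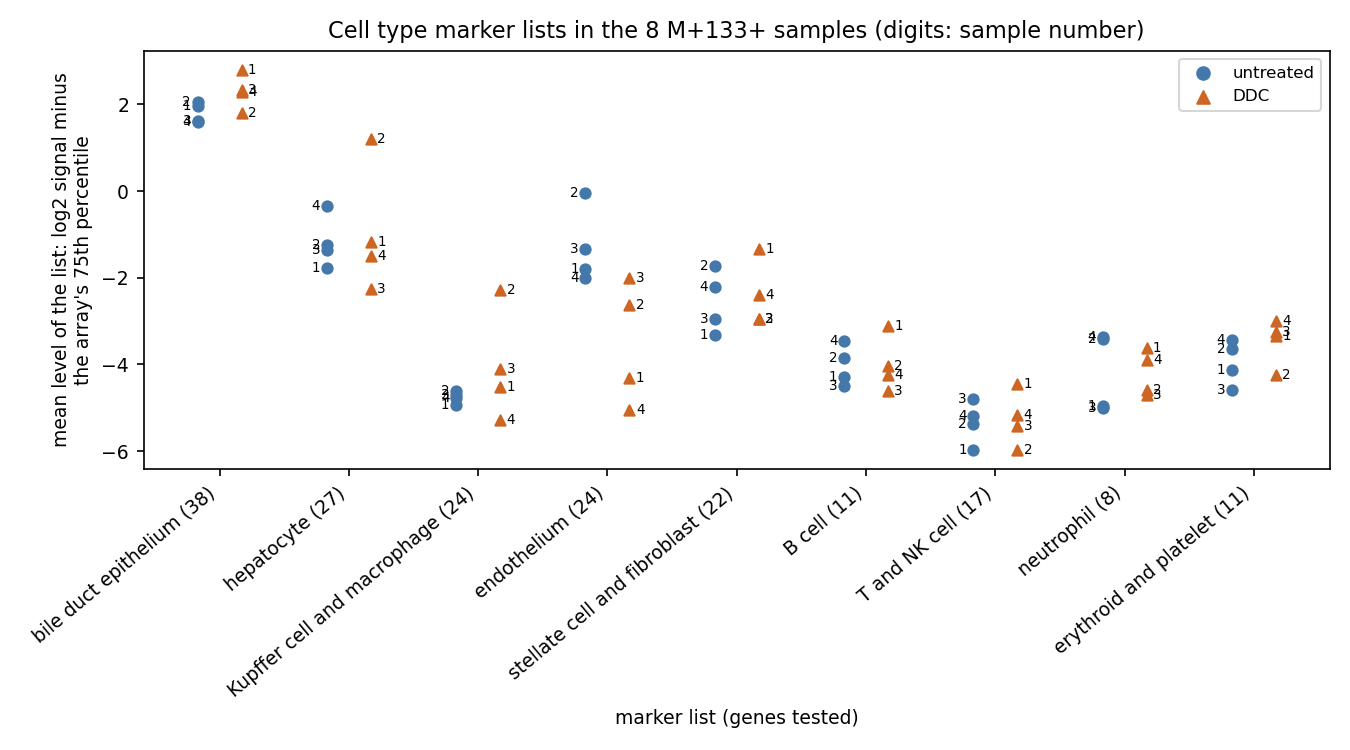
Mean level of 9 cell type marker lists (vertical axis, log2 signal minus the array's 75th percentile) in the 4 untreated (circles) and 4 DDC (triangles) M+133+ samples, each point labelled with its sample number. Duct genes stay between 1.60 and 2.80 in all samples, DDC sample 2 stands above the others for hepatocyte and macrophage genes, and the endothelial means of DDC samples 1 and 4 are the lowest.

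Over all genes, few passed the test for a DDC difference in M+133+ cells. The count is of genes that passed, and not of genes that changed. Of 23305 genes tested, 63 were called (0.270%), 40 higher (0.172%) and 23 lower (0.0987%), and 2920 (12.5%) had an unadjusted p under 0.05. In all 63 the values of the 4 DDC samples did not overlap those of the 4 untreated samples, which held for 985 genes in the higher (4.23%) and 969 in the lower direction (4.16%) among all genes tested. The median difference over all genes was 0.08, and 53.3% of differences were positive. The number of calls rested on single samples. It was 6 without untreated sample 3 and 6 without untreated sample 4 (5 and 6 of them among the 63), 11 without DDC sample 4 (7 shared), 40 without untreated sample 1 (31 shared), 72 without untreated sample 2 (44 shared), 45 without DDC sample 1 (33 shared), 113 without DDC sample 3 (48 shared) and 121 without DDC sample 2 (54 shared). Without DDC samples 1 and 2, the samples that stood apart above, 44 genes were called, 14 of them among the 63. Only Chil3, Chil4, Tacr3 and Itga9 kept their calls whichever of the 8 samples was left out. Both treatments were on slide 3, with untreated samples 2 and 3 and DDC samples 1 and 2. They were also both on slide 4, with untreated sample 4 and DDC samples 3 and 4. The repeat arrays of untreated sample 1 were on slides 2 and 5, which held no M+133+ DDC sample. That sample is therefore in none of the within-slide differences. With slide as a fixed block 28 genes were called, 26 of them among the 63, and with slide as a random block 120, with 57 shared.

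The largest increase and the smallest adjusted p belonged to genes of chitinase-like proteins, secreted relatives of chitinases that lack the catalytic activity. Chil3, known as Ym1, stood at -4.65, -6.09, -5.06 and -4.75 in untreated samples 1 to 4 and at 3.02, 3.76, 2.07 and 2.24 in DDC samples 1 to 4. Every DDC sample was thus among the brighter probes of its array, and every untreated sample was dim. Chil3 rose 241-fold (log2 difference 7.91, SE 0.71, limma adjusted p = 0.00032), by 8.97 within slide 3 and 6.90 within slide 4, and by 7.58 to 8.14 when each sample was left out in turn. Its close paralog Chil4, known as Ym2, stood at -8.54, -2.17, -7.21 and -7.38 untreated and at 5.30, 2.26, 1.87 and 3.82 after DDC. It was well above background on 1 of the 5 untreated arrays. Its difference of 9.63 (SE 1.16, limma adjusted p = 0.00353) is therefore a fitted size that rests on dim untreated signals. The Chil3 probe lies at chr3:105950485-105950544 and the Chil4 probe at chr3:106006764-106007043 on mouse build mm9. The Chil4 probe covers 280 bases of genome with 60 bases of sequence, so it crosses an exon junction, and the array's own annotation lists it against transcripts of both genes. Which of the paralogs gave its signal is uncertain. It is shown because it gave the largest increase of all genes called:
Chil4 probe: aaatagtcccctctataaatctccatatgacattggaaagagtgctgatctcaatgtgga

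Macrophages are a known source of Chil3 transcripts, so macrophage genes are given beside it. Adgre1, which encodes a surface receptor of macrophages, was at -8.35, -6.84, -9.26 and -8.52 untreated and at -8.11, -2.74, -8.95 and -8.75 after DDC, well above background on 1 array of each group. The mean of the macrophage list was -4.94, -4.62, -4.70 and -4.78 untreated and -4.51, -2.28, -4.11 and -5.29 after DDC. Of the 24 macrophage genes tested, none was called and 17 had a positive difference (median 0.90, and 0.18 without DDC samples 1 and 2). The part of macrophages in the Chil3 signal was not tested. The other genes of the chitinase-like and type 2 response list did not pass the test. Of 18 tested, the paralogs above were the only ones called, beside 0.172% of all genes called higher. Chil1 stood at -7.29, -7.14, -6.54 and -6.19 and at -5.03, -4.95, -3.55 and -0.78, with no overlap between the groups (difference 3.22, SE 0.96, limma adjusted p = 0.189).

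**Figure D2:**
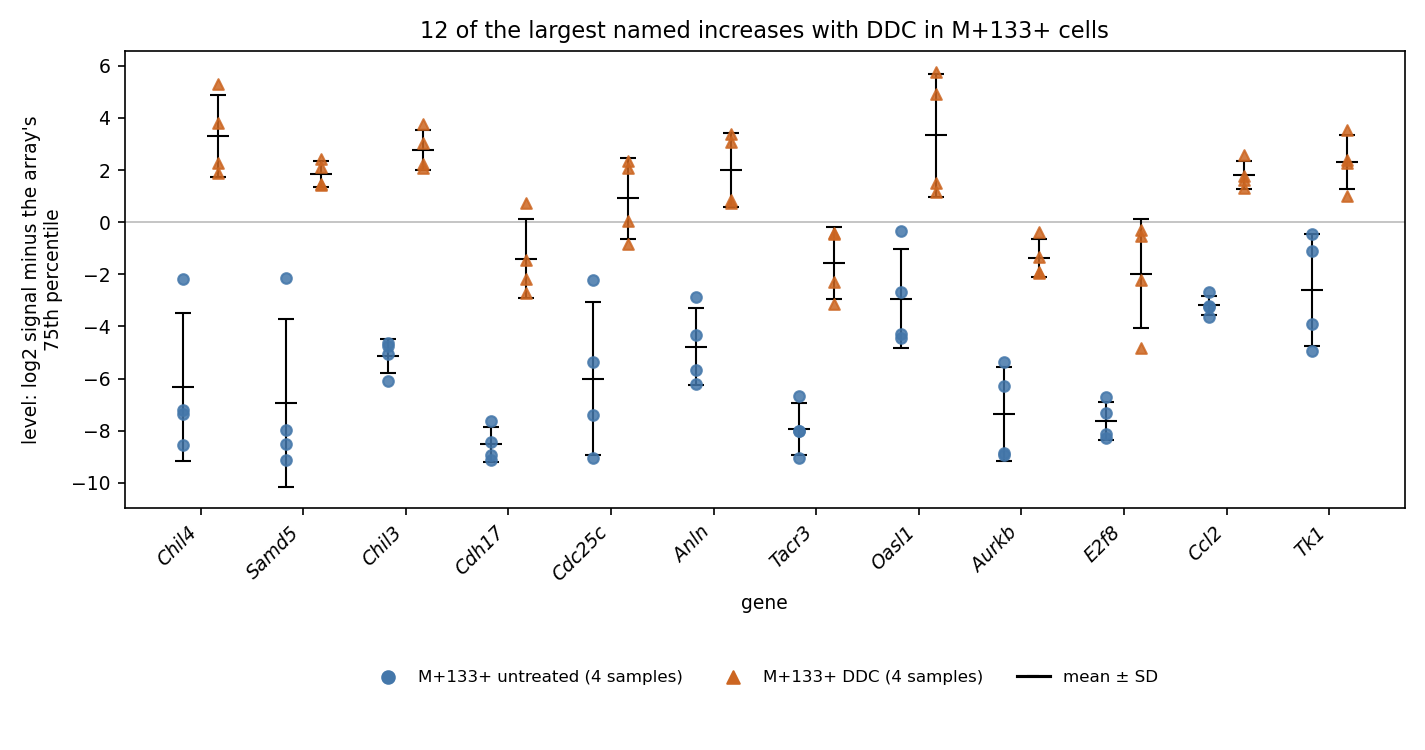
Levels (vertical axis, log2 signal minus the array's 75th percentile) of 12 of the named genes with the largest increases, in 4 untreated (circles) and 4 DDC (triangles) M+133+ samples, with mean and SD. No DDC point overlaps the untreated points of the same gene, and in Chil4, Samd5 and Cdc25c untreated sample 2 lies well above the other untreated samples.

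Genes of mitosis stood higher after DDC, and 7 of them passed the test. The list of mitosis and cytokinesis genes holds kinases, cyclins, kinesins, condensins and spindle checkpoint proteins, which cells make mainly in G2 and M phase. Of 74 members tested, 7 were called higher and 0 lower, beside 0.172% and 0.0987% of all genes. An unadjusted p under 0.05 was found in 60, beside 12.5% of all genes. All 74 differences were positive, from 0.11 to 6.91, with a median of 2.98 against 0.08 over all genes. The groups did not overlap in 41 members, beside 4.23% of all genes in the higher direction. The list's mean level was -2.39, -0.65, -2.30 and -3.08 in untreated samples 1 to 4 and 0.93, 1.26, 0.52 and 1.04 in DDC samples 1 to 4, so untreated sample 2 was the highest of its group and still below every DDC sample. The median difference was 2.04 within slide 3 and 3.76 within slide 4. The calls were less steady than the median. With slide as a fixed block, and also without untreated sample 3, without untreated sample 4, without DDC sample 4 or without DDC samples 1 and 2, limma called none of the 74, with medians of 2.99, 2.90, 2.47, 2.77 and 2.71 and with 55, 61, 57, 56 and 44 members at an unadjusted p under 0.05. Without untreated sample 1, 1 was called, and without untreated sample 2, 11 were.

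The 7 called mitosis genes span entry into mitosis to the final cut between daughter cells. Mki67, which encodes the Ki-67 antigen of dividing cells, stood at 0.80, 1.71, 1.15 and 0.67 untreated and at 2.86, 3.81, 3.39 and 2.87 after DDC. It was already bright before treatment and rose 4.45-fold (2.15, SE 0.39, limma adjusted p = 0.0365), while a dimmer probe of the gene gave a difference of 3.59. Ccna2, cyclin A2, stood at -4.13, -1.53, -2.13 and -4.87 and at 1.95, 0.57, 0.86 and 0.36, a rise of 4.10 (SE 0.77, limma adjusted p = 0.044). Cdc25c, the phosphatase that activates the mitotic kinase Cdk1, stood at -5.36, -2.20, -9.03 and -7.39 and at 2.34, 2.09, 0.06 and -0.84. It was dim on 3 of the 5 untreated arrays, and its fitted difference was 6.91 (SE 1.21, limma adjusted p = 0.033), against 3.77 for a second probe above background on 8 of 9 arrays. Aurkb, the kinase of the chromosomal passenger complex, stood at -6.30, -5.37, -8.85 and -8.93 and at -1.91, -1.33, -1.93 and -0.36 (difference 5.98, SE 1.08, limma adjusted p = 0.0365).

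The other called members act on chromosomes and the cleavage furrow. Ncapg, a subunit of condensin I, stood at -1.35, -0.40, -2.09 and -1.47 untreated and at 3.74, 2.32, 1.52 and 2.98 after DDC, and Kif4, a chromosome-bound kinesin, at -1.78, -1.99, -2.52 and -2.10 and at 3.56, 1.52, 1.60 and 0.93. They rose by 3.97 (SE 0.76) and 4.00 (SE 0.72), or 15.7-fold and 16-fold (limma adjusted p = 0.044 and 0.0365). Anln, which encodes anillin of the cleavage furrow, had the larger range. It stood at -4.33, -2.87, -6.22 and -5.67 and at 3.40, 0.72, 0.87 and 3.07 (difference 6.79, SE 1.02, limma adjusted p = 0.0189). Second probes gave 6.46 for Ncapg, 4.40 for Kif4 and 4.80 for Anln. Ube2c, the ubiquitin-conjugating enzyme of the anaphase-promoting complex, lay just outside the threshold, at -3.22, -1.38, -3.24 and -3.81 against 1.31, 0.15, 0.87 and 1.79 (difference 3.94, limma adjusted p = 0.0528). Racgap1 and Ect2, which set the position of the furrow, differed by 3.90 and 3.28 (limma adjusted p = 0.0703 and 0.0712), without overlap between the groups.

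Promoters of mitosis genes are known to carry CHR elements, with the core TTTGAA, and CCAAT boxes. In RefSeq promoters of build GRCm38.p6, each from 250 bases before to 50 after a gene's start, TTTGAA on either strand was found in 47 of 69 promoters of 63 list genes (68.1%) and in 17.9% of all 32851 promoters. CCAAT on either strand was found in 75.4% and 37.4%. The stretches below run from 150 bases before the start to 30 after it in called mitosis genes that the table holds, with TTTGAA and CCAAT or their reverse complements (TTCAAA and ATTGG) in capitals. They are shown because these genes rose together and share the first motif, and a match is a description of letters only.
Mki67, chr7:135716350-135716529, minus strand: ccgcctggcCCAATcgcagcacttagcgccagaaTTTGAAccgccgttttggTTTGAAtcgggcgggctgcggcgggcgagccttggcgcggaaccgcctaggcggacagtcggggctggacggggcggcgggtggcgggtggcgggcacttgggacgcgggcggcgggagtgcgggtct
Ncapg, chr5:45669775-45669954, plus strand: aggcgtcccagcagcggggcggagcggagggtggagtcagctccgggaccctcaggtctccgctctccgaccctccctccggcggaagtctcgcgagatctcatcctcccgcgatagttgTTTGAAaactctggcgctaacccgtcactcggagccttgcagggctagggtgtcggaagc
Kif4, chrX:100625915-100626094, plus strand: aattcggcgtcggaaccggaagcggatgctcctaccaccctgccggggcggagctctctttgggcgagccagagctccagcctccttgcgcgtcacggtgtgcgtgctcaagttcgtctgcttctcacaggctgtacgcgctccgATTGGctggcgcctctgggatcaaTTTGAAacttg
Anln, chr9:22389177-22389356, minus strand: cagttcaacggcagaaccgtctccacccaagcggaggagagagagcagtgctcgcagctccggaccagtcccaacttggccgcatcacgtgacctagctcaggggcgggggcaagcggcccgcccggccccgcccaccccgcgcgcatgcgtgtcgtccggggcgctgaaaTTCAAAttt

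Genes of DNA replication and the G1/S transition were higher by less. Of 70 tested, 2 were called higher and none lower, 62 differences were positive, and the median was 1.05, with 1.02 within slide 3 and 1.75 within slide 4. The groups did not overlap in 18 members, beside 4.23% of all genes in the higher direction, and the calls stand beside 0.172%. The called genes were Tk1, thymidine kinase, and E2f8, an atypical E2F factor that represses replication genes. Tk1 stood at -0.47, -1.09, -3.91 and -4.94 untreated and at 2.39, 1.01, 2.27 and 3.53 after DDC (difference 4.90, SE 0.91, limma adjusted p = 0.0412). The untreated samples fell into a brighter pair, 1 and 2, and a dimmer pair, 3 and 4, and its difference was 4.20 within slide 3 and 7.84 within slide 4. E2f8 stood at -6.72, -8.30, -7.32 and -8.14 and at -0.53, -0.31, -2.22 and -4.81 (difference 5.65, SE 1.08, limma adjusted p = 0.044). Uhrf1, which maintains DNA methylation in S phase, did not overlap between groups, at -0.71, 1.12, -0.53 and -0.49 against 2.50, 2.84, 2.19 and 2.27 (difference 2.60, limma adjusted p = 0.0587). The E2F site TTTNNCGC, on either strand, was found in 40% of 65 promoters of 55 list genes and in 5.17% of all promoters. For Tk1 and E2f8, the stretch from 150 bases before the start to 30 after it held no match. No call of this list remained without untreated sample 3 or 4, without DDC sample 1 or 3, or without DDC samples 1 and 2.

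Of the called genes 6 encode core histones. They were picked out after their values were seen, no list of histone genes was tested and uncalled ones were not counted, so nothing follows for histone genes as a group. H2ac1, H2ac10, H2ac20, H2aj, H2bc1 and H2bc12, of the H2A and H2B families, rose by 2.46 (H2aj) to 2.92 (H2ac1), with limma adjusted p from 0.0189 to 0.0499. H2ac20 stood at 0.84, 2.04, 1.19 and 1.58 untreated and at 4.35, 3.68, 4.21 and 4.59 after DDC, and H2bc12 at 0.10, 1.63, 0.33 and 0.09 and at 2.49, 3.33, 3.99 and 3.59. Their untreated levels were among the brighter probes, and untreated sample 2 was the highest of its group in H2bc12 and H2bc1. These are not 6 independent measurements. Histone genes of a family share most of their coding sequence, and the longest run shared by the H2ac1 and H2ac10 probes was 44 of 60 bases, with 29 bases shared with the H2aj probe. The probes are shown to make this overlap visible, with the shared run in capitals (mm9, plus strand):
H2ac1, chr13:24026659-24026718: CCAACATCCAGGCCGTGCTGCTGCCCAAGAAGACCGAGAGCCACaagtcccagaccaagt
H2ac10, chr13:23626108-23626167: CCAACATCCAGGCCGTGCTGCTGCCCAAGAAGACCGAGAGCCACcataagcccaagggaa
H2aj, chr6:136757181-136757240: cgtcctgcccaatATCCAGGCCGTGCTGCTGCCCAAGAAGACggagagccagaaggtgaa
A second, dim H2aj probe gave a difference of 0.32. Second probes above background on all 9 arrays gave 2.81 for H2ac20, 2.28 for H2ac10 and 2.50 for H2bc12. The longest run that the H2ac20 probe shared with each probe printed above was 7 bases. The sequences of the second probes were not compared, so which histone genes rose remains uncertain.

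Genes of mucous and gut-like epithelium stood higher as a list, with few calls. Of 30 tested, 25 had a positive difference (median 1.55), beside 53.3% of all genes. The list's mean level was -1.21, -0.91, -3.05 and -2.29 in untreated samples 1 to 4. In DDC samples 1 to 4 it was 0.78, -0.86, -1.34 and 0.71. The groups overlap, with DDC sample 3 below untreated samples 1 and 2. Called were 1 higher and 1 lower, beside 0.172% and 0.0987% of all genes. The higher one was Cdh17, the cadherin of intestinal epithelium. It stood at -8.42, -7.64, -9.12 and -8.93, below background on all 5 untreated arrays, and at 0.75, -1.44, -2.73 and -2.17 after DDC. Cdh17 was at least 46.6-fold higher (limma adjusted p = 0.0189), where the fold is taken against the dimmest signal called above background. The lower one was Pigr, the receptor that carries immunoglobulin A across epithelia into bile, at 3.31, 3.33, 3.64 and 3.52 untreated and 1.37, 1.42, 1.97 and -0.29 after DDC. The untreated values lay close together, and Pigr fell by 2.33 on the log2 scale (SE 0.43, limma adjusted p = 0.0412). Tff3, a trefoil peptide of mucus, and Spink4, a protease inhibitor of goblet cells, did not pass the test (differences 4.41 and 3.25, limma adjusted p = 0.111 and 0.16). Tff3 stood at 1.12, 1.17, -3.78 and -3.37 untreated and at 3.13, 2.57, 3.42 and 3.66 after DDC, so that untreated samples 1 and 2 were much closer to the DDC samples than untreated samples 3 and 4.

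Epithelial genes outside that list also changed. Sprr1a, a cornified envelope protein induced in stressed epithelia, stood at 2.99, 2.32, 0.39 and 1.68 and at 6.26, 4.67, 5.04 and 5.57 (difference 3.54, SE 0.63, limma adjusted p = 0.0345). Rbp2, the retinol-binding protein of enterocytes, stood at -3.00, -3.98, -3.98 and -1.73 and at 2.05, 0.47, 1.27 and 1.80 (difference 4.57, SE 0.73, limma adjusted p = 0.0189), and its second probe gave 4.40. Among junction genes Cldn10, a claudin that forms ion pores, fell from 0.04, -1.78, 0.70 and -0.11 to -5.24, -4.93, -4.01 and -4.69 (difference -4.43, SE 0.69, limma adjusted p = 0.0189). The junction and keratin list as a whole had a median of 0.44 (0.12 under quantile normalization) with 24 of 37 positive and no member called higher. Krt20, an intestinal keratin, was at -5.94, -0.64, -5.10 and -4.99 against 2.54, 0.91, 2.30 and 2.00 and did not pass the test (difference 6.11, limma adjusted p = 0.0587).

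Genes of inflammation gave single calls. Of 43 chemokine, cytokine and acute phase genes 1 was called, beside 0.172% of all genes called higher. A positive difference was found in 35, beside 53.3% of all genes, and the median was 1.20. The called gene was Ccl2, the chemokine that attracts monocytes, with tight values of -3.63, -3.25, -2.70 and -3.21 untreated and 1.62, 1.77, 1.33 and 2.58 after DDC. Ccl2 rose 32.4-fold (5.02, SE 0.82, limma adjusted p = 0.0198). Lcn2, lipocalin 2, was at -1.97, 1.72, -2.54 and -0.70 against 2.51, 1.24, 2.74 and 3.12 and overlapped between groups. Vcam1, an adhesion molecule for leukocytes, was the only call among 31 of the NF-kB and TNF list, beside 0.172% of all genes called higher. It stood at 2.85, 3.02, 1.76 and 1.99 and at 5.28, 4.37, 4.74 and 4.61 (difference 2.35, SE 0.36, limma adjusted p = 0.0189), and its other probes gave 3.72 and 4.98. Cfb, complement factor B, had the smallest called increase, 1.26 (SE 0.24, limma adjusted p = 0.0472), from 3.29, 3.19, 3.63 and 3.37 to 5.16, 4.41, 4.27 and 4.69. Oasl1, an interferon-induced gene, rose by 6.27 (SE 1.14, limma adjusted p = 0.0365), from -2.66, -0.33, -4.43 and -4.29 to 5.78, 1.14, 1.51 and 4.92. The interferon and antigen presentation list did not share that direction. It had 13 of 38 positive differences, a median of -0.53 and no calls, and the median was -0.19 without untreated sample 2, -0.20 without DDC sample 1 and -0.22 without DDC sample 4. Ifit1 stood at -0.44, 0.01, -0.34 and 0.70 untreated and -2.85, -2.18, -2.04 and -5.09 after DDC, and did not pass the test (limma adjusted p = 0.149).

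Genes of the Nrf2 antioxidant response stood higher in 29 of 35 cases, with a median of 0.89 that fell to 0.40 under quantile normalization. Gsta2, a glutathione transferase, was the only called member, beside 0.172% of all genes called higher. It stood at 0.19, 1.76, -0.15 and 1.13 untreated and at 4.12, 4.23, 3.47 and 3.41 after DDC and rose 8.42-fold (3.07, SE 0.49, limma adjusted p = 0.0189), and glutathione transferases of the alpha class are close paralogs. Its relative Gsta1 differed by 1.92 (SE 0.40, limma adjusted p = 0.0636), and the aldo-keto reductase Akr1b8 by 2.40 (limma adjusted p = 0.102). Glycolysis and hypoxia genes had 18 of 24 positive differences, a median of 0.91 (0.44 under quantile normalization) and no calls. Pgk1, phosphoglycerate kinase, differed by 1.28 (SE 0.35) with no overlap between groups. Heme and iron genes had a median of 0.23 (0.06 under quantile normalization) with 18 of 31 positive and no calls. Alad, the second enzyme of heme synthesis, was at 1.53, 1.77, -0.43 and 0.85 against 6.08, 1.21, 2.56 and 4.91, high in DDC samples 1 and 4. Apob, the apolipoprotein of liver and gut lipoproteins, was the only call among 27 hepatocyte list genes, beside 0.172% of all genes called higher. It stood at -0.83, -0.54, -0.28 and 1.33 and at 2.87, 2.62, 2.91 and 3.67 (difference 3.10, SE 0.49, limma adjusted p = 0.0189). Its value in DDC sample 2, where hepatocyte genes stood high, was the lowest of the group. Untreated sample 4 was the highest of its group both in Apob and in the hepatocyte list mean, at -0.35. The part of hepatocytes in the Apob signal was not tested. The 4 other Apob probes gave smaller differences, from 0.65 to 2.23. Without DDC sample 1 or DDC sample 4 another of them was the brightest and stood for the gene, and the call was lost (1.40 and 1.23, limma adjusted p = 0.455 and 0.559).

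Signalling lists held few or no calls. Notch (22 tested, 9 positive, median -0.21), Wnt (34, 17 and 0.04), TGF-beta with BMP (30, 15 and -0.02) and growth factors (38, 20 and 0.21) had none. The Wnt list does not hold Fzd9, which was called lower and is described with the decreases. Tgfbr3, a co-receptor for TGF-beta, was at 1.32, 1.21, 0.62 and 1.20 untreated and -4.13, -1.57, -0.36 and -2.76 after DDC (difference -3.29, SE 0.67, limma adjusted p = 0.0558). Medians near the all-gene median of 0.08 were also found for bile acid transport (0.06, 11 of 21 positive) and immediate early genes (0.21, 16 of 28). Fstl1, described with the decreases, was the only call among 25 Hippo and YAP genes (median -0.34), beside 0.0987% of all genes called lower. The bile duct epithelium list had 26 of 38 positive and a median of 0.54, or 0.14 without DDC sample 1. None of the lists for CDK inhibitors and p53 targets (median 0.56), collagens and laminins (0.63), the unfolded protein response (0.54), sterol and fatty acid metabolism (0.34) or ribosome biogenesis (0.38) held a called gene. Such medians moved with single samples and with the scaling. That of the CDK inhibitor list was 0.14 without untreated sample 3, 0.23 without untreated sample 4 and 0.10 under quantile normalization, and that of the unfolded protein response 0.29 without DDC sample 1 and 0.14 under quantile normalization. Without DDC sample 1 the Wnt, growth factor and TGF-beta medians were -0.28, -0.08 and -0.19, and without DDC sample 2 the last was 0.14. Over all alternatives the medians ran from 0.10 to 0.58 for sterol metabolism, 0.18 to 0.54 for ribosome biogenesis, 0.22 to 0.76 for collagens, 0.03 to 0.43 for bile acid transport, -0.25 to 0.34 for immediate early genes and -0.28 to 0.05 for Notch, so no direction is drawn from them.

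**Figure D3:**
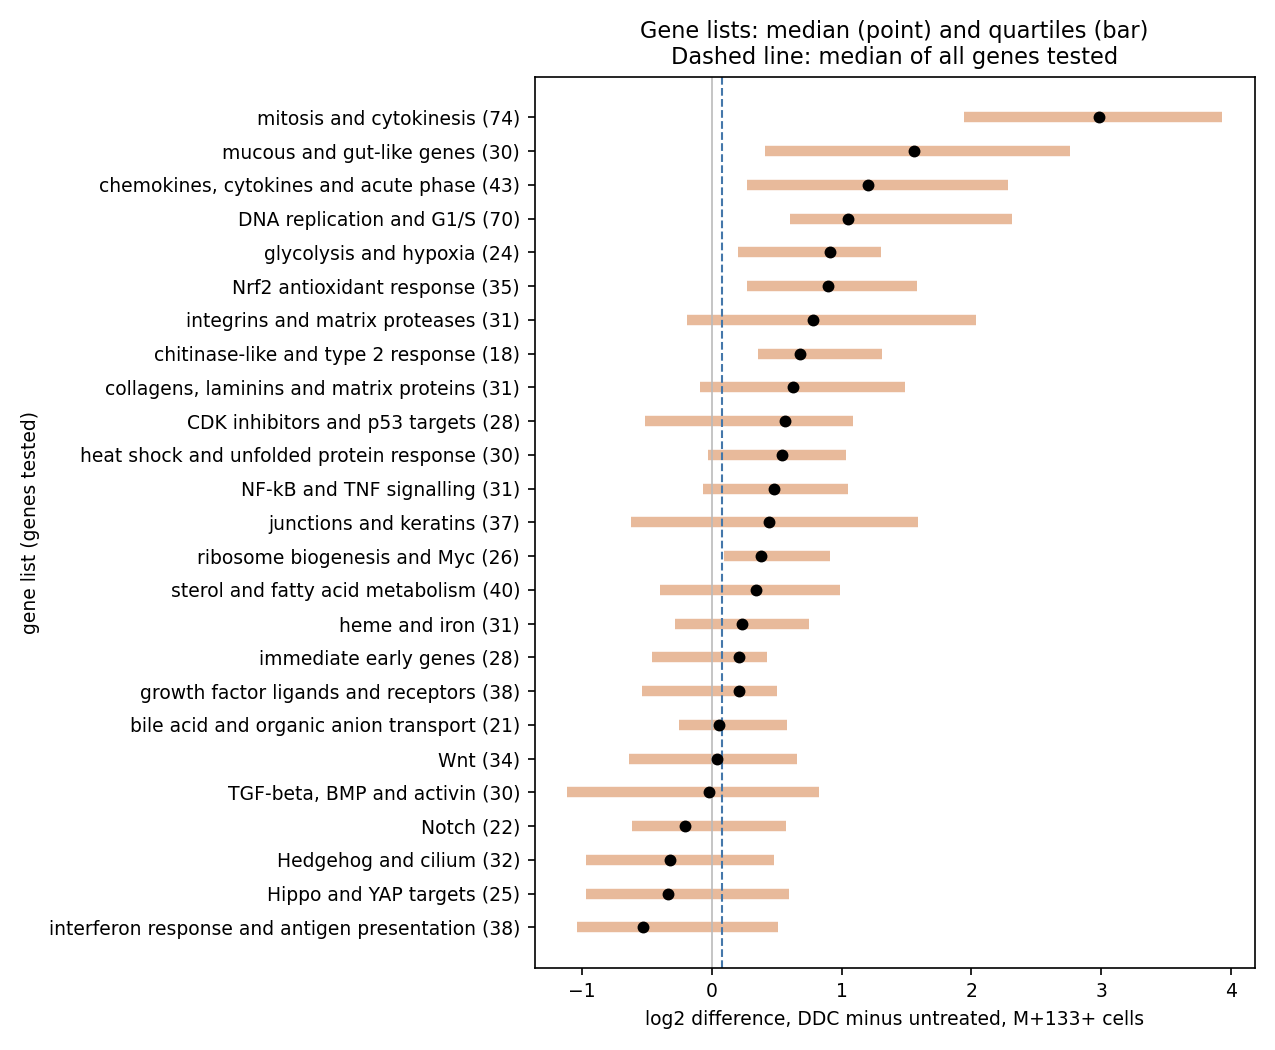
Median (point) and quartiles (bar) of the log2 difference between DDC and untreated M+133+ samples in 25 pathway lists, with the number of genes tested in parentheses and the median of all genes, 0.08, as a dashed line. The mitosis list lies farthest to the right, with a median of 2.98.

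Other called increases stood outside the lists. Tacr3, the neurokinin B receptor, stood at -6.66, -8.00, -9.05 and -8.02 untreated and at -0.43, -2.29, -3.13 and -0.40 after DDC (difference 6.37, SE 0.76, limma adjusted p = 0.00353), and another probe gave 6.41. It was well above background on 1 untreated array, so the size rests on dim signals. Samd5 stood at -8.53, -2.15, -9.13 and -7.98 and at 2.13, 2.42, 1.47 and 1.41 (difference 8.81, SE 1.54, limma adjusted p = 0.033), and was well above background on 1 of the 5 untreated arrays. Tdh, threonine dehydrogenase, rose 14.8-fold from -1.10, -2.62, -2.22 and -1.94 to 0.70, 2.92, 2.32 and 1.74 (limma adjusted p = 0.0189). Among the rest were Adcy2, an adenylate cyclase (4.18, limma adjusted p = 0.044), Rad51b, a recombination protein (4.31, 0.0497), Emp1 (3.29, 0.0499), Sec24d of COPII vesicles (2.55, 0.0235) and Igfbp4 (2.47, 0.0469), each higher in 4 of 4 DDC samples than in any untreated sample. The phosphate transporter Slc20a1 was called with 2.99 (limma adjusted p = 0.0412), but a second probe, above background on all 9 arrays, gave 0.89, and the call was lost when that probe was the brighter (0.83, limma adjusted p = 0.806, after normexp correction). Second probes gave 2.89 for Rad51b, 4.39 for Adcy2 and 1.96 for Igfbp4. Tcte1, below background on every untreated array, was at least 4.3-fold higher (limma adjusted p = 0.033).

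The decreases were led by genes with very dim DDC values. Dnah5, a heavy chain of the outer dynein arm of motile cilia, stood at 0.20, 0.02, 1.82 and 1.44 untreated and at -8.00, -5.29, -3.08 and -7.60 after DDC (difference -6.86, SE 0.93, limma adjusted p = 0.0122). Dnali1, an inner arm dynein protein, stood at -0.38, 0.44, 1.98 and 3.85 and at -3.50, -2.08, -3.14 and -2.61 (-4.30, SE 0.84, limma adjusted p = 0.0499). Dnah5 was the only call of the Hedgehog and cilium list, which does not hold Dnali1, beside 0.0987% of all genes called lower. The list had 14 of 32 positive differences and a median of -0.32, or 0.01 without DDC sample 4, and Foxj1, the master regulator of motile cilia, stood at 1.48, 1.70, 1.47 and 2.96 and -1.38, 1.08, 1.27 and -3.35 without overlap and did not pass the test (difference -2.50, limma adjusted p = 0.417). Dimmer probes of Dnah5 gave -3.51 and -1.25.

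Ank2, an ankyrin, stood at 0.94, 1.19, 1.43 and 2.49 untreated and at -4.86, -4.17, -4.00 and -4.71 after DDC, with both groups tight (-5.95, SE 0.95, limma adjusted p = 0.0189). A dimmer Ank2 probe gave -4.35, and probes at or near background gave 1.06 and 0.70. Itga9, the integrin alpha 9 chain, stood at 0.48, 1.14, 1.79 and 1.35 and at -3.25, -2.81, -2.80 and -2.13, and fell by 3.94 (SE 0.47, limma adjusted p = 0.00353), with a second probe at -6.77. Atoh8, a basic helix-loop-helix factor, stood at 3.29, 3.08, 3.88 and 3.88 and at -1.11, 1.01, 0.06 and -0.78. It was 13.4-fold lower (-3.74, SE 0.55, limma adjusted p = 0.0189). Ikzf4, the zinc finger factor Eos, stood at 3.12, 2.10, 3.16 and 3.39 and at -0.55, 1.07, 0.31 and -1.52 (-3.12, SE 0.56, limma adjusted p = 0.0365), but its other probes, above background on all 9 arrays, gave only -1.05 and -0.45. Fstl1, a secreted follistatin-like protein, stood at -0.35, 0.27, 0.26 and 1.23 and at -2.57, -3.36, -2.77 and -4.09 (-3.55, SE 0.61, limma adjusted p = 0.0288). Fzd9, a Wnt receptor, stood at 1.68, -0.36, 2.45 and 0.79 and at -1.15, -3.34, -4.37 and -4.07 (-4.37, SE 0.83, limma adjusted p = 0.044). In all 6 genes every DDC sample lay below every untreated sample.

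The remaining decreases include genes that are brighter in M-133- cells. Arap3 stood at -0.02, 1.88, 1.59 and 1.54 untreated and at -7.63, -1.32, -3.63 and -8.10 after DDC, against 5.36 and 5.79 in M-133- untreated samples, and a dim second probe gave -0.08. Exoc3l2 stood at -0.48, 0.72, 1.39 and 1.51 and at -6.56, -3.90, -3.89 and -5.83, against 5.34 and 5.87. Colec10, a collectin, stood at -1.06, 0.15, 0.25 and -0.04 and at -4.28, -8.91, -2.97 and -8.75, against 2.47 and 1.55, and Car3, a carbonic anhydrase, at -4.10, -1.31, -3.95 and -0.99 and at -6.02, -6.17, -8.74 and -6.90, against 4.60 and 4.31. These genes were called lower with limma adjusted p of 0.0412, 0.0189, 0.0369 and 0.044. The direction of Car3 is uncertain, since its second probe, well above background on all 9 arrays, gave a difference of 1.17. In 9 of the 23 decreased genes the mean level in M-133- untreated samples was at or above that in M+133+ untreated samples. The endothelial means given above moved the same way as these decreases, and were lowest in DDC samples 1 and 4, where Arap3, Exoc3l2 and Dnah5 were lowest too. Their part in the decreases was not tested. Ces1d, a carboxylesterase, was bright in both groups, at 4.69, 4.68, 4.84 and 5.34 and 3.45, 2.58, 3.55 and 1.96, and was 4-fold lower (limma adjusted p = 0.0351). Zscan20, Zfp287 and Fam171b fell with DDC values at or near background (-7.90 to -6.09), while the other probes of Zfp287 gave differences between -0.79 and 0.26, that of Zscan20 -2.17 and that of Fam171b -0.99.

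**Figure D4:**
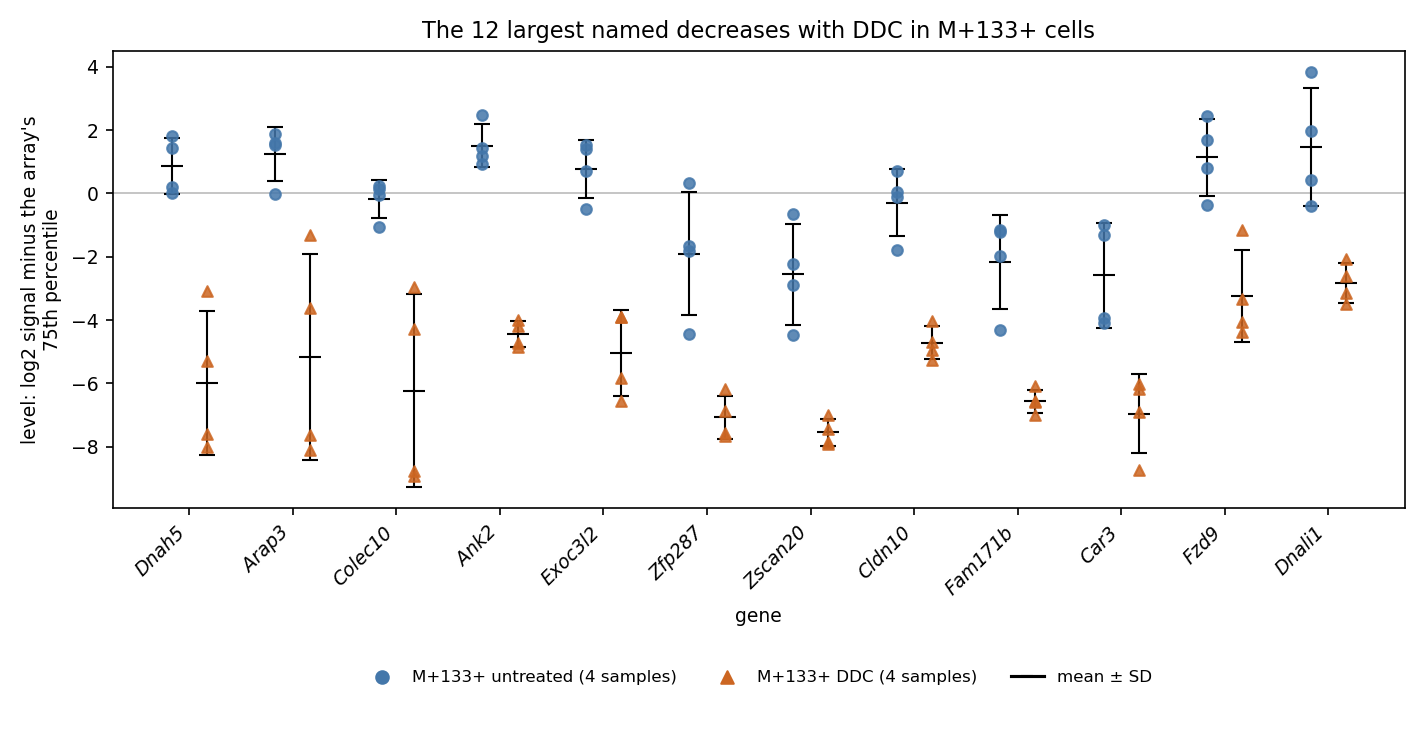
Levels (vertical axis, log2 signal minus the array's 75th percentile) of the 12 named genes with the largest decreases, in 4 untreated (circles) and 4 DDC (triangles) M+133+ samples, with mean and SD. Ank2 and Cldn10 have tight DDC values, while Arap3 and Colec10 spread over more than 5 units after DDC.

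The response was then set beside that of M-133- cells from the same kind of livers. There 228 genes were called (0.978%), and Cdc25c and Sprr1a were the only genes called in both sorts in the same direction. Of the 63 genes, 48 had a difference of the same sign in M-133- cells, called or not. Over all genes the interaction, the difference between the DDC effects of the sorts, was called for 61 (0.262%), of which 7 were among the 63. The chitinase-like genes were not called in M-133- cells: Chil3 stood at -5.78 and -4.37 in the 2 untreated and at -8.36, -7.08, -5.76 and -7.11 in the 4 DDC samples, an interaction of 9.92 (SE 1.12, limma adjusted p = 0.00168), and that of Chil4 was 10.35 (limma adjusted p = 0.0355). Tacr3 was dim in all M-133- samples, at -7.64 and -8.46 and -8.41, -9.11, -8.10 and -8.41 (interaction 6.83, limma adjusted p = 0.0355). Sprr1a rose in both sorts and by more in M-133- cells, from -7.59 and -7.49 to 3.68, 1.63, 3.77 and 2.18 (interaction -6.81, SE 0.99, limma adjusted p = 0.00833), so that after DDC it was still lower there than in M+133+ cells. Both untreated M-133- values lay below the dimmest signals called above background in those samples, -5.48 and -6.47. The sizes of that rise and of the Sprr1a interaction therefore rest on dim signals. Fstl1, Atoh8 and Ikzf4 fell in M+133+ cells, and their M-133- differences were 1.82, 0.85 and 1.42, none of them called (interactions -5.37, -4.59 and -4.54, limma adjusted p = 0.0355, 0.0427 and 0.0499). The 2 untreated M-133- samples limit all of these.

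The mitosis genes had a median difference of 2.87 in M-133- cells, with 70 of 74 positive, beside 2.98 in M+133+ cells, and no member had a called interaction. For the replication list the medians were 0.90 and 1.05. The mucous and gut-like list had -0.34 in M-133- cells beside 1.55, also without a called interaction, where the all-gene medians were -0.33 and 0.08. Among the duct markers Spp1, osteopontin, differed by 0.02 in M+133+ and by 8.81 in M-133- cells (interaction -8.79, limma adjusted p = 0.00199).

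**Figure D5:**
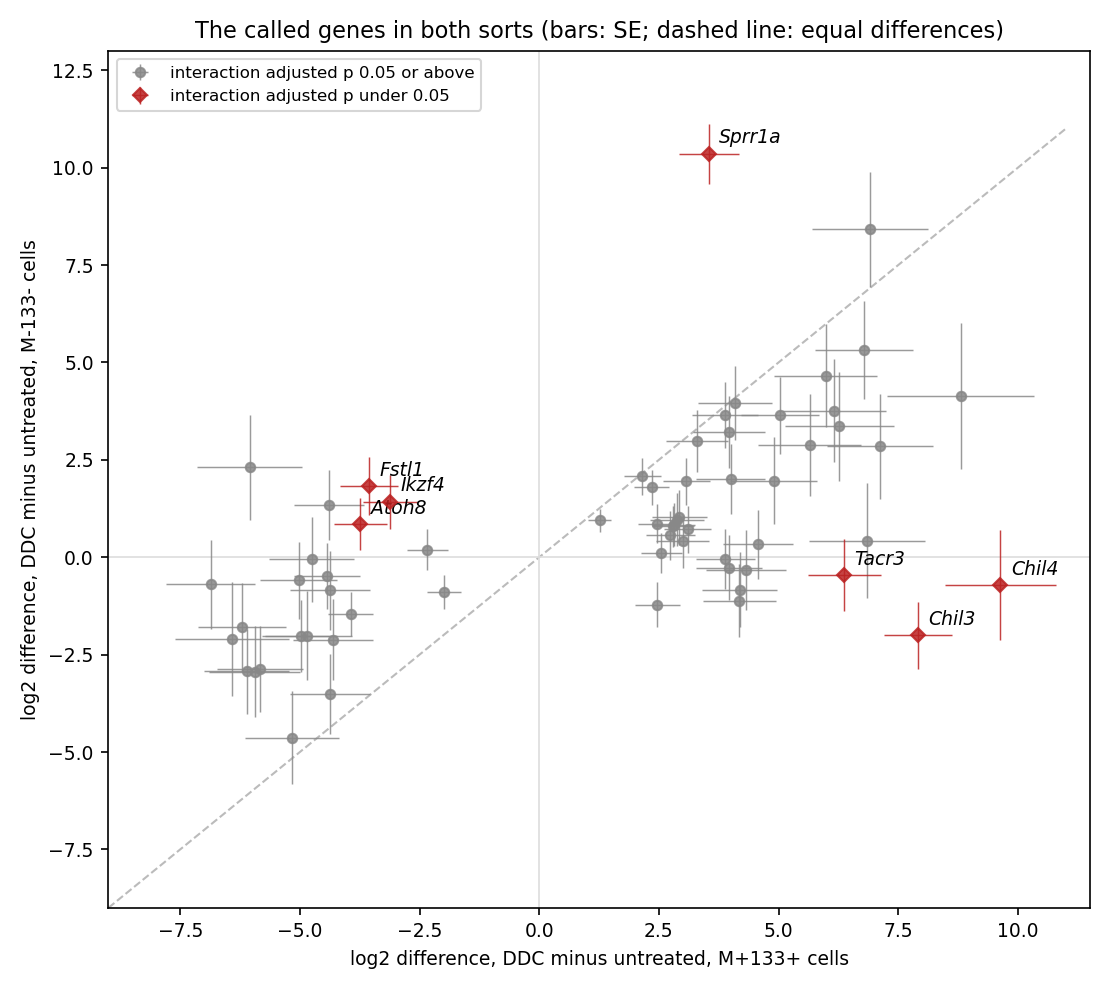
The 63 called genes by their log2 difference with DDC in M+133+ cells (horizontal axis) and in M-133- cells (vertical axis), with SE bars and the line of equal differences. Red diamonds mark the 7 genes with an interaction adjusted p under 0.05, of which Sprr1a lies above the line on the right and Chil3, Chil4 and Tacr3 below it.

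The authors' deposited table gives fold changes and false discovery rates for the same comparison. It has the direction found here for all 63 genes, and 34 of them have a false discovery rate under 5% there, the level that 152 of its 38565 probes reach. The same arrays underlie both, so this is a check of processing and not a second measurement.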

How the data were processed

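Scanner files deposited by the authors hold, per the file headers, an intensity for every spot that Agilent Feature Extraction 10.5.1.1 had corrected for background and spatial trend, with no scaling across arrays. Uncorrected spot and background intensities of these files served 1 alternative. Whether a spot is well above background is the scanner software's own call, per the file headers. The authors' deposited comparison table holds 2 kinds of score, a linear fold change with a sign and a false discovery rate in percent, per the file headers. The submitters' processing notes mention limma, but which test gave these values is not given in the sources used here.

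Spots flagged as outliers were left out, log2 signals had the array's 75th percentile subtracted, and repeat spots and then repeat arrays were averaged. Probe positions are on mm9, per the files. Of 41174 probes, 26792 were named through RefSeq (GRCm38.p6) by accession, 5125 by symbol and 929 by synonym, and 8328 kept their file name. A probe was kept where it was well above background in a share of 0.5 or more of the samples of at least 1 group, and the brightest probe stood for a gene, which left 23305 of 28030 names. One linear model over all 14 samples was fitted with limma 3.58.1 in R 4.3.3 with an intensity trend, two-sided, and p-values were adjusted over all genes (Benjamini-Hochberg, 0.05). The fit was tested on simulated data.

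The sort, the gene lists and the rules were chosen with earlier results of these data known. The text names the 12 largest changes and 6 smallest adjusted p per direction, list members that were called or had the largest moderated t, duct and cell type markers, and the largest interactions; other called genes were named after their values were seen, and some items are not reported here. A list is described by counts and its median beside all genes, with no test of its own. Promoter and motif counts use RefSeq sequences of GRCm38.p6. Alternatives covered background correction, normalization, filters, probes, samples, slide and blocks.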

Additional observations from a re-analysis of the deposited data

Results flagged for a closer look

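Among the 126 groups of 4 M+133+ samples behind the 63 called genes, 5 held a sample whose gap to the nearest other, divided by the range of the group, exceeded Dixon's critical value, a rule that flags about 1 in 20 groups by chance. Samd5 in untreated sample 2 stood at -2.15, against -9.13 to -7.98 in the other untreated samples, and H2bc12 in the same sample at 1.63, against 0.09 to 0.33. The clone 2700038G22Rik, below background on every untreated array and at least 30.2-fold higher after DDC, stood at -8.62 in untreated sample 1, against -8.97 to -8.93. The transcript BE691581 was called lower, and untreated sample 1 stood at -4.68, against -0.81 to -0.16. Adcy2, called higher, stood at 1.12 in DDC sample 1, against -1.90 to -1.61 in the other DDC samples.

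The DDC effect differed between the sorts by limma's interaction test for 7 called genes. The interactions (M+133+ effect minus M-133- effect, log2) were 10.35 for Chil4, 9.92 for Chil3, 6.83 for Tacr3, -6.81 for Sprr1a, -5.37 for Fstl1, -4.59 for Atoh8 and -4.54 for Ikzf4.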

How the results depend on the processing

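None of the 63 calls changed direction under the 22 alternatives, and 36 kept their side of the threshold under at least 11 of them. Leaving out 1 sample gave 6 to 121 calls, 177 to 263 in M-133- cells, and 2 to 7 called interactions among the 63. The count was 138 under quantile normalization, 32 under median scaling (which moved the all-gene median from 0.08 to 0.21), 40 with the 8 M+133+ samples alone, 22 without the intensity trend, 28 with slide as a fixed block (3 interactions) and 120 with slide as a random block (11 interactions, and 587 genes in M-133- cells). Without DDC samples 1 and 2, an alternative chosen after seeing the data, 2 interactions were called. With the replicate number as a block, limma called 0 genes of the 8 samples (3221 had an unadjusted p under 0.05, and the lowest adjusted p among the 63 was 0.148, for Chil3). The labels name no preparation shared by same-numbered samples. Deviations of same-numbered samples correlated at -0.01 to 0.03, beside -0.08 to 0.09 for different numbers. Such correlations cannot exclude a pairing that acts on part of the genes, so whether the numbers pair samples is not settled. Other counts stayed within 1.5 times. The medians of the mitosis and replication lists ran from 2.43 to 3.44 and from 0.94 to 1.37. The cause of these changes was not tested. Signals near background limit the size of the largest changes.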
